A study of Mus musculus with 6 samples.

Results

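The genes of sterol and fatty acid metabolism were examined in primary microglia (PM) for the response to LPS when GSK-J4 was also given. The set comprised 41 genes, chosen by symbol from the SREBP and LXR pathways, out of 24411 genes in the count tables. PM were collected by shaking mixed glial cultures from pooled brains of neonatal ICR mice. They were treated for 4 h with GSK-J4 (10 μM), an inhibitor of H3K27 demethylases such as JMJD3, or with the same dose of GSK-J4 and LPS (10 ng/ml), a ligand of TLR4. Each group had 3 libraries of rRNA-depleted RNA, and both groups carried GSK-J4. Untreated PM and PM treated with LPS alone were not analysed here, so every difference given below is that of LPS + GSK-J4 against GSK-J4. The study's methods describe the 3 libraries of a group as biological replicates from independent RNA, the labels do not say whether each came from its own culture, and the p values measure the spread between these libraries. In such bulk RNA, fewer cells of a type and less RNA per cell cannot be told apart.

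Cells control their sterol level through SREBP transcription factors, which are held in the endoplasmic reticulum by the proteins SCAP and INSIG when sterols are plentiful. When sterols run low, SREBPs are cleaved, enter the nucleus and activate the genes of the mevalonate pathway and of fatty acid synthesis. Oxysterols signal a surplus by activating the nuclear receptors LXRα and LXRβ, which induce transporters for cholesterol efflux. Microglia and macrophages use this machinery to handle lipid from debris, and the enzyme made from Ch25h, cholesterol 25-hydroxylase, produces 25-hydroxycholesterol, an oxysterol that holds SREBPs inactive.

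Promoter sequences from RefSeq (build GRCm38.p6) were matched to 33 of the 41 genes, each with 250 bases before and 50 bases after a transcription start. Fdps, Fdft1, Sqle, Stard4, Scd1, Scd2, Fads1 and Abcg1 had no entry. A CCAAT box (CCAAT on either strand), the letters bound by the factor NF-Y, which acts beside SREBPs, was present in 24 of the 33 genes. It was present in 41.1% of all 27025 genes with such a sequence. The E-box CACGTG was present in 7 of the 33 genes and in 8.09% of all genes. The letters TCACNCCAC, a core of the sterol regulatory element, were found in Hmgcs1 alone and in 1.44% of all genes. The interferon-stimulated response element was present in Ggps1 and Ebp, and in 3.99% of all genes. The TATA box TATAAA was present in Scap, Abca1, Mylip and Ch25h, and in 15.7% of all genes. For the LXR direct repeat with a spacer of 4 free bases and the NF-κB element, only a fixed spelling of each was searched. Neither spelling was found in these windows of the 33 genes, and they are present in 0.0148% and 0.174% of all genes. Variant spellings of both elements were not searched, so their absence from these promoters, that of Abca1 included, was not tested. All motifs were searched on both strands, and a match is a description of letters, not of a bound site.

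Upstream sequences are shown for 4 genes. Insig1 and Ch25h were higher with LPS and Mvd was lower. Hmgcs1, which did not pass the threshold for a change, carries the sterol regulatory letters. Each sequence runs 5′ to 3′ on the strand of the gene and stops before the annotated start. They lie at chr5:28071162-28071362 (plus strand, Insig1), chr13:119690101-119690350 (plus strand, Hmgcs1), chr8:122443423-122443672 (minus strand, Mvd) and chr19:34475165-34475398 (minus strand, Ch25h). Capitals mark ATTGG or CCAAT (the CCAAT box), CACGTG (the E-box), TCACCCCAC (the sterol regulatory letters) and TATAAA (the TATA box), and no marked motifs overlap.
Insig1: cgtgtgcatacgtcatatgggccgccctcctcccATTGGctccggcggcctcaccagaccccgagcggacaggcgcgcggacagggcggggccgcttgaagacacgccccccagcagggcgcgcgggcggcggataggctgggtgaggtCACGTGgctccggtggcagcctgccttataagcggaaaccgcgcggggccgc
Hmgcs1: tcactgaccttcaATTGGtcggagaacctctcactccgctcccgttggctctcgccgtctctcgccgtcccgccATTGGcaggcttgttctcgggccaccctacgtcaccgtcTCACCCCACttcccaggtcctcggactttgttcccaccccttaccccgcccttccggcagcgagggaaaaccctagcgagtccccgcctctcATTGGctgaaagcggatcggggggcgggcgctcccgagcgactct
Mvd: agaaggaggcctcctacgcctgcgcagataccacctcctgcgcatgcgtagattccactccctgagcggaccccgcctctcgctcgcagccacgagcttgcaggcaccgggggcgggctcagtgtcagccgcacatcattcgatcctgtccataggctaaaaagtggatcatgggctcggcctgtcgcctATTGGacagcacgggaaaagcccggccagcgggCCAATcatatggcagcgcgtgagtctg
Ch25h: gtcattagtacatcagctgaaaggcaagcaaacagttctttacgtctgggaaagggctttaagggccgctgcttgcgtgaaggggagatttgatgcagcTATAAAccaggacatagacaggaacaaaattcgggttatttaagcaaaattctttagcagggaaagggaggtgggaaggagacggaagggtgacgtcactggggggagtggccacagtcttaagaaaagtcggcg
Insig1 held 1 CCAAT box and 1 E-box, Hmgcs1 3 CCAAT boxes beside the sterol regulatory letters, Mvd 2 CCAAT boxes, and Ch25h a TATA box without the other letters searched.

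The libraries held 2597505 to 3472716 counted fragments. The ribosomal RNA precursor Rn45s took 22.2 to 32.4% of them in GSK-J4 and 45.8 to 48.1% in LPS + GSK-J4, and 1499693 to 2443344 against 1374377 to 1444886 counts remained outside ribosomal features. Levels are given as CPM (counts scaled to a common library total, after TMM), and 3 counts, taken as the lower limit, were between 0.673 and 1.24 CPM. Replicate 3 of both groups stood apart. Between libraries of a group, chi-square divided by its degrees of freedom was 2.12 and 2.32 for replicates 1 and 2, and 5.81 to 12.5 for pairs with replicate 3. This measure was scaled to raw totals, Rn45s included and without TMM. Rn45s took 22.2, 22.3 and 32.4% in GSK-J4 replicates 1, 2 and 3. In LPS + GSK-J4 it took 48.1, 45.8 and 47.5%, and its part in the chi-square was not tested.

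The 12 microglial markers summed to between 3946 and 4125 CPM in GSK-J4 and between 3170 and 3351 CPM in LPS + GSK-J4, with 2 of 12 lower, Cx3cr1 and Csf1r. The identity markers P2ry12 and Tmem119 were low, at means of 13.2 and 5.01 CPM in GSK-J4. Markers of other cells were present, and several were higher with LPS. The 8 astrocyte markers summed to between 53.9 and 59.4 CPM in GSK-J4 and between 131 and 159 CPM in LPS + GSK-J4, with 3 of 7 tested markers higher (Gfap, Aqp4 and Gja1). The 10 markers of the oligodendrocyte lineage summed to between 192 and 223 CPM and between 367 and 426 CPM, with 5 of 7 tested markers higher. The 5 fibroblast markers overlapped between the groups, at 71.8 to 262 CPM and 132 to 393 CPM, with 0 of 5 called. The 5 neuronal markers summed to between 15.8 and 22.4 CPM and between 35.1 and 44.5 CPM, with 2 of 3 tested markers higher (Tubb3 and Map2). The 3 endothelial markers were at 11.2 to 16.3 CPM and 18.0 to 55.3 CPM, nearly all of it Cdh5, and Cldn5 was at 0 in every library. Astrocytes and oligodendrocytes make sterols and fatty acids, and their part in the differences below was not tested.

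**Figure D1:**
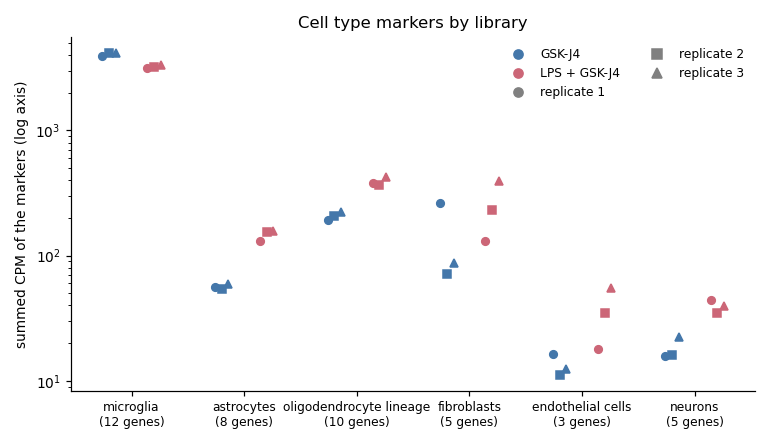
Summed level of the markers of 6 cell types (CPM, log axis) in each library, with GSK-J4 in blue, LPS + GSK-J4 in red and the replicates as separate symbols. Astrocyte and oligodendrocyte markers lie higher in all 3 LPS + GSK-J4 libraries, and the microglial markers lie lower.

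With GSK-J4 present, 7 of the sterol and fatty acid genes changed with LPS. Ch25h, Fads2, Fasn and Insig1 rose, and Mvd, Soat1 and Abca1 fell. Of the 41 genes, 39 passed the filter on low counts, and 7 of them changed in edgeR's quasi-likelihood test with a Benjamini-Hochberg threshold of 0.01, 4 upward and 3 downward. Of all 10133 genes tested, 13.9% changed, 8.42% upward and 5.46% downward. The 7 of 39 genes are 17.9%, a share near that background. With the fold threshold of the study added (1.5 on the log2 scale), 2 genes were up-regulated, Ch25h and Fads2, against 2.95% of all genes. Ch25h passed the filter on low counts only through the LPS + GSK-J4 libraries, where it was high. Past it, 0 of the 39 genes were down-regulated, against 0.809% of all genes, and 3.76% of all genes passed it in either direction. The median log2 fold change of the 39 genes was 0.09, and that of all genes was -0.00064.

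The groups did not overlap for 9 genes that were higher and 7 that were lower in LPS + GSK-J4, against 19.8% and 18.4% of all genes. For 28 of the 32 genes without a call, the 95% interval of the difference lay within a 2-fold change in either direction. The same held for 6338 of the 8727 genes without a call over all genes tested. The interval reached further for Idi1, Sc5d, Scd1 and Nr1h3. Of the 32 genes, 8 had an unadjusted p under 0.05 in edgeR. Hmgcs1, Cyp51, Msmo1, Acaca and Scd1 had a higher mean and Dhcr7, Fads1 and Mylip a lower mean in LPS + GSK-J4. The share of all genes at that unadjusted p was not counted. At an adjusted p of 0.05, 9 of the 39 genes passed (23.1%), against 23.6% of all genes. Acat2, the cytosolic thiolase that begins the pathway, and Elovl6, an elongase, were too low to be tested, with means of 2.44 and 2.02 CPM in GSK-J4 and 3.41 and 3.17 CPM in LPS + GSK-J4.

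**Figure D2:**
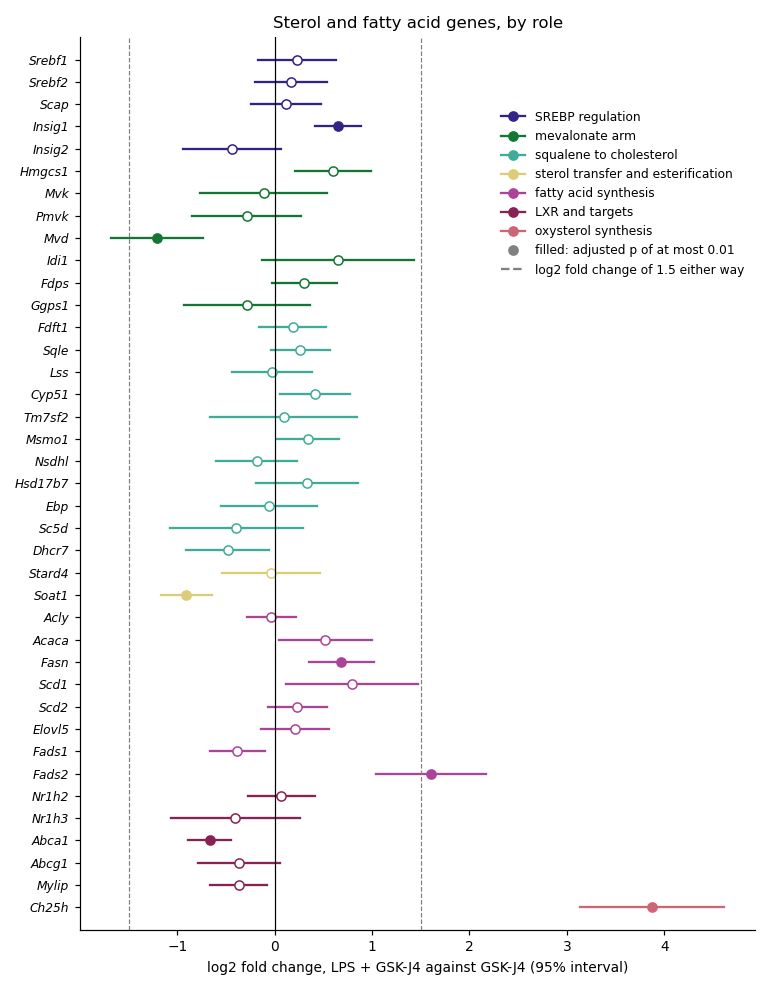
Log2 fold change of LPS + GSK-J4 against GSK-J4 with its 95% interval for the 39 genes tested, coloured by role. Filled points passed an adjusted p of 0.01, dashed lines mark a log2 fold change of 1.5 in either direction, and most intervals cross 0.

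Ch25h showed the largest difference of the set. The study lists Ch25h among the genes that GSK-J4 lowered in LPS-treated PM, a comparison that was not made here. Cholesterol 25-hydroxylase turns cholesterol into 25-hydroxycholesterol and is encoded by a gene without introns (mm10 chromosome 19, 34473778 to 34475164, minus strand). Its level was 2.12, 1.12 and 1.10 CPM in GSK-J4 replicates 1, 2 and 3, and 23.0, 15.6 and 28.5 CPM in LPS + GSK-J4 replicates 1, 2 and 3. In counts as deposited, these were 9, 5 and 3 fragments against 59, 41 and 69. The gene was thus tested only because of its counts in LPS + GSK-J4. Every LPS + GSK-J4 library lay far above every GSK-J4 library, in which the gene was near the limit of detection. The mean rose from 1.45 ± 0.585 to 22.4 ± 6.45 CPM (SD, n = 3), a difference of 3.87 on the log2 scale (standard error, SE, 0.35, adjusted p = 6.44e-07 in edgeR's quasi-likelihood test). With the counts of a group summed, 17 against 169, the ratio was 14.9, with a 95% interval from 9.05 to 26.2 that covers counting error only (exact conditional binomial). Leaving out single libraries and the other alternatives that tested it gave log2 fold changes from 3.56 to 4.27.

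Of the 5 genes that regulate SREBPs, Insig1 rose and 4 were not called. INSIG1 retains the SREBP complex in the endoplasmic reticulum, and its gene is itself a target of SREBPs. Insig1 (chromosome 5, 28071363 to 28078662, plus strand) was at 269.7, 297 and 269 CPM in the GSK-J4 libraries and at 462, 457 and 396 CPM in the LPS + GSK-J4 libraries. The groups did not overlap, and the lowest LPS + GSK-J4 library was replicate 3. The mean rose from 279 ± 16.2 to 438 ± 36.3 CPM (SD, n = 3), a difference of 0.65 on the log2 scale (SE 0.11, adjusted p = 0.000438, edgeR). Its paralog Insig2, with the same function in most tissues, had a log2 fold change of -0.44 (adjusted p = 0.205, edgeR) and overlapping groups.

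Srebf1 and Srebf2, which encode the SREBPs, and Scap, which escorts them to the Golgi, were not called. Srebf1 was at 46.5, 48.3 and 70.4 CPM in GSK-J4 and at 53.5, 57.2 and 80.9 CPM in LPS + GSK-J4. Srebf2 was at 91.1, 80.4 and 121 CPM and at 87.8, 103 and 136 CPM. Both genes were highest in replicate 3 of each group, as was Scap, and the difference between replicates was larger than that between groups. Their log2 fold changes were 0.23, 0.17 and 0.12 for Srebf1, Srebf2 and Scap, with adjusted p = 0.430, 0.532 and 0.671 in edgeR.

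The mevalonate pathway turns acetyl-CoA into isoprenoids. Of its 7 tested enzymes, Mvd fell and the other 6 were not called, with log2 fold changes from -0.29 (Pmvk) to 0.65 (Idi1). Mevalonate diphosphate decarboxylase, the product of Mvd, makes isopentenyl diphosphate. Mvd (chromosome 8, 122433601 to 122443422, minus strand) was at 23.1, 19.5 and 29.7 CPM in GSK-J4 and at 10.1, 10.3 and 10.3 CPM in LPS + GSK-J4. The LPS + GSK-J4 libraries were nearly identical and all lay below the GSK-J4 libraries. The mean fell from 24.1 ± 5.16 to 10.3 ± 0.0964 CPM (SD, n = 3), a difference of -1.21 on the log2 scale (SE 0.22, adjusted p = 0.000830, edgeR). This was the largest decrease of the set. Mvd, Soat1 and Ch25h overlap other annotated genes (Gm20388, Gm37648 and Gm26902), whose strands were not compared. The counts used were strand-specific.

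Hmgcs1, the synthase that commits acetyl units to the pathway, had a higher mean with LPS. It was at 18.6, 22.2 and 20.5 CPM in GSK-J4 and at 34.0, 33.6 and 25.6 CPM in LPS + GSK-J4. The groups did not overlap, but the log2 fold change of 0.60 (SE 0.18) did not pass the threshold (adjusted p = 0.0262, edgeR). Idi1, which isomerizes isopentenyl diphosphate, was at 7.31, 10.5 and 6.97 CPM in GSK-J4 and at 16.0, 18.7 and 4.54 CPM in LPS + GSK-J4. Its replicates 1 and 2 with LPS were above every GSK-J4 library and its replicate 3 was the lowest of all 6. Fdps, which makes farnesyl diphosphate, was at 34.2, 30.8 and 40.0 CPM and at 40.2, 44.3 and 44.2 CPM, which was 0.30 as a log2 fold change (adjusted p = 0.188, edgeR). Mvk and Pmvk, the kinases of the pathway, and Ggps1, which makes the geranylgeranyl group for protein prenylation, had log2 fold changes of -0.11, -0.29 and -0.28 and overlapping groups.

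None of the 11 enzymes from squalene to cholesterol was called by edgeR, and DESeq2 also called 0. In edgeR 3 had an unadjusted p under 0.05, a share that was not counted over all genes. Their log2 fold changes ran from -0.48 (Dhcr7) to 0.41 (Cyp51), with 6 positive and 5 negative, and a median of 0.09. Sqle, whose product is the first oxygen-dependent and a rate-limiting step, was at 44.8, 42.2 and 44.0 CPM in GSK-J4 and at 49.6, 50.0 and 57.8 CPM in LPS + GSK-J4. The LPS + GSK-J4 libraries were all slightly higher, but the log2 fold change of 0.26 did not pass (adjusted p = 0.207, edgeR). Cyp51, the lanosterol demethylase, was at 40.3, 37.0 and 31.2 CPM and at 51.1, 54.9 and 39.2 CPM, and its groups overlapped. Msmo1, the methylsterol monooxygenase that follows it, was at 87.3, 98.5 and 78.1 CPM and at 122, 125 and 88.8 CPM. As for Cyp51, replicates 1 and 2 with LPS lay above all GSK-J4 libraries and replicate 3 did not.

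Dhcr7, which catalyses the final reduction to cholesterol in 1 branch of the pathway, was lower, at 28.1, 28.1 and 26.0 CPM in GSK-J4 and at 21.9, 22.9 and 14.0 CPM in LPS + GSK-J4. Its groups did not overlap, and its log2 fold change of -0.48 was not called (adjusted p = 0.0976, edgeR). Lss, the lanosterol synthase, was at 18.7 ± 1.85 and 18.3 ± 1.29 CPM (SD, n = 3), with a 95% interval of the log2 fold change from -0.43 to 0.38. Fdft1, the squalene synthase, had a log2 fold change of 0.18. Tm7sf2, Nsdhl, Hsd17b7, Ebp and Sc5d, which act between lanosterol and the substrate of Dhcr7, had log2 fold changes of 0.09, -0.18, 0.33, -0.06 and -0.39. The intervals of all 6 included 0. Tm7sf2 had the widest, from -0.66 to 0.85, and that of Sc5d ran from -1.08 to 0.29.

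Calls among the sterol enzymes changed without LPS + GSK-J4 replicate 3. Over the 18 tested enzymes from Hmgcs1 to Dhcr7, LPS + GSK-J4 replicate 1 lay above every GSK-J4 library for 8 genes, replicate 2 for 9 and replicate 3 for 5, against 34.7, 35.4 and 38.5% of all genes. Replicate 3 was the lowest of the LPS + GSK-J4 libraries for 9 of the 18, and for 36.8% of all genes. With all libraries, only Mvd was called among the 18. Without LPS + GSK-J4 replicate 3, Hmgcs1 (log2 fold change 0.72, adjusted p = 0.00405, edgeR), Idi1 (1.04, adjusted p = 0.00384) and Msmo1 (0.48, adjusted p = 0.00588) also rose. Of the 40 genes of the set tested in that setting, 7 rose and 3 fell, which is 25.0%, against 15.3% of all genes (925 up and 679 down). Over all alternatives, adjusted p in edgeR or DESeq2 ran from 0.00298 to 0.116 for Hmgcs1, from 0.00384 to 0.690 for Idi1 and from 0.00460 to 0.356 for Msmo1.

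**Figure D3:**
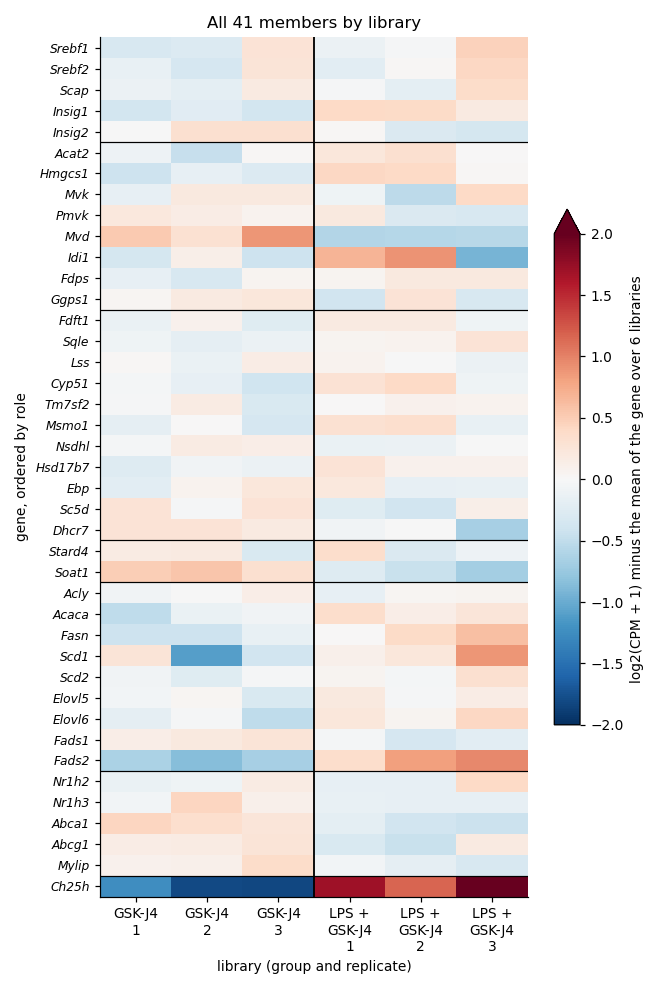
Log2(CPM + 1) of each of the 41 genes in each library, minus the mean of the gene over the 6 libraries, with genes ordered by role and separated by lines. Ch25h and Fads2 are high and Mvd is low in all 3 LPS + GSK-J4 libraries, and Idi1 parts LPS + GSK-J4 replicate 3 from replicates 1 and 2.

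Soat1, which encodes the enzyme that esterifies cholesterol for storage in lipid droplets, fell. It was at 518, 545 and 464 CPM in GSK-J4 and at 311, 273 and 231 CPM in LPS + GSK-J4, without overlap. The mean fell from 509 ± 41.2 to 271 ± 39.9 CPM (SD, n = 3), a difference of -0.91 on the log2 scale (SE 0.12, adjusted p = 6.05e-05, edgeR; chromosome 1, 156424525 to 156474331, minus strand). Stard4, a carrier of sterols between membranes, was at 14.5 ± 2.74 and 14.3 ± 3.58 CPM, which was -0.04 as a log2 fold change with an interval from -0.55 to 0.46.

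Among the genes of fatty acid synthesis, Fads2 and Fasn rose and the other 6 tested were not called. Fads2 encodes the delta-6 desaturase of polyunsaturated fatty acids (chromosome 19, 10062765 to 10101746, minus strand). It was at 5.66, 4.71 and 5.50 CPM in GSK-J4 and at 12.1, 17.2 and 19.0 CPM in LPS + GSK-J4. The groups were well apart, and the LPS + GSK-J4 libraries spread more widely. The mean rose from 5.29 ± 0.507 to 16.1 ± 3.57 CPM (SD, n = 3), a difference of 1.60 on the log2 scale (SE 0.27, adjusted p = 0.000351, edgeR). Without LPS + GSK-J4 replicate 3 the log2 fold change was 1.47, below the threshold of 1.5 for the fold change.

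Fads1, the neighbouring gene for the delta-5 desaturase of the same route, was not called. It was at 79.7, 83.5 and 87.3 CPM in GSK-J4 and at 71.0, 57.6 and 63.2 CPM in LPS + GSK-J4. All LPS + GSK-J4 libraries were lower, with a log2 fold change of -0.38 (adjusted p = 0.0480, edgeR).

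Fasn, the fatty acid synthase, was at 55.4, 55.4 and 67.1 CPM in GSK-J4 and at 74.9, 96.9 and 113 CPM in LPS + GSK-J4. The groups did not overlap. Within LPS + GSK-J4 the order of the libraries was that of their astrocyte markers (131, 153 and 159 CPM in replicates 1, 2 and 3). The microglial (3170, 3177 and 3351 CPM), fibroblast (132, 229 and 393 CPM) and endothelial markers (18.0, 34.7 and 55.3 CPM) had the same order. The oligodendrocyte (379, 367 and 426 CPM) and neuronal markers (44.5, 35.1 and 39.6 CPM) did not. The part of these cells was not tested. The mean rose from 59.3 ± 6.73 to 95.0 ± 19.2 CPM (SD, n = 3), a difference of 0.69 on the log2 scale (SE 0.16, adjusted p = 0.00476, edgeR). The call was lost without GSK-J4 replicate 1 (adjusted p = 0.0276, edgeR), GSK-J4 replicate 2 (0.0295) or LPS + GSK-J4 replicate 2 (0.0289), and adjusted p ran from 5.98e-06 to 0.0295 over the alternatives.

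The enzymes that supply Fasn were not called. Acly, which makes cytosolic acetyl-CoA from citrate, was at 187 ± 13.5 and 182 ± 14.9 CPM (SD, n = 3), with an interval of the log2 fold change from -0.29 to 0.21. Acaca, the acetyl-CoA carboxylase, was at 8.97, 11.9 and 12.5 CPM in GSK-J4 and at 17.2, 14.5 and 15.7 CPM in LPS + GSK-J4. These did not overlap, and the log2 fold change of 0.52 had an adjusted p = 0.112 in edgeR.

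The stearoyl-CoA desaturases, which make monounsaturated fatty acids, were not called. Scd1 was at 18.4, 6.51 and 11.4 CPM in GSK-J4 and at 16.4, 17.9 and 28.9 CPM in LPS + GSK-J4, and GSK-J4 replicate 1 lay among the LPS + GSK-J4 libraries. The fibroblast markers summed to 262, 71.8 and 86.9 CPM and to 132, 229 and 393 CPM in the same libraries, the same order over the 6 libraries as that of Scd1, and their part was not tested. The log2 fold change of Scd1 was 0.79 (adjusted p = 0.0859, edgeR), and without GSK-J4 replicate 1 it was 1.28 (adjusted p = 0.00953). Over the alternatives its adjusted p ran from 0.00953 to 0.470. Scd2, the form common in brain, was at 61.0 ± 4.79 and 71.7 ± 9.39 CPM (SD, n = 3), which was 0.23 as a log2 fold change with an interval from -0.07 to 0.54. The elongase gene Elovl5 had a log2 fold change of 0.21 and overlapping groups.

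Of the LXR genes and their targets, Abca1 fell and the others were not called. ABCA1 exports cholesterol to apolipoproteins. Abca1 (chromosome 4, 53030787 to 53159895, minus strand) was at 2022, 1905 and 1773 CPM in GSK-J4 and at 1316, 1150.1 and 1120.3 CPM in LPS + GSK-J4. Every LPS + GSK-J4 library was lower. The mean fell from 1899.9 ± 125 to 1195 ± 105 CPM (SD, n = 3), a difference of -0.67 on the log2 scale (SE 0.11, adjusted p = 0.000225, edgeR). The summed microglial markers were lower in the same libraries, and their part in this difference was not tested.

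Mylip, an LXR target whose product marks lipoprotein receptors for degradation, was at 78.8, 79.9 and 95.7 CPM in GSK-J4 and at 71.4, 65.6 and 59.1 CPM in LPS + GSK-J4. The groups did not overlap, and the log2 fold change of -0.37 was not called (adjusted p = 0.0656, edgeR). Abcg1, the transporter that exports cholesterol to lipoprotein particles, was at 25.2, 25.6 and 27.5 CPM and at 18.3, 16.4 and 26.0 CPM. Its groups overlapped through LPS + GSK-J4 replicate 3, with a log2 fold change of -0.37 (adjusted p = 0.209, edgeR). Nr1h2, which encodes LXRβ, was at 70.7 ± 8.07 and 74.0 ± 17.5 CPM (SD, n = 3), and Nr1h3, which encodes LXRα, at 6.58 ± 1.36 and 5.00 ± 0.0668 CPM. Neither was called, with log2 fold changes of 0.07 and -0.40.

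**Figure D4:**
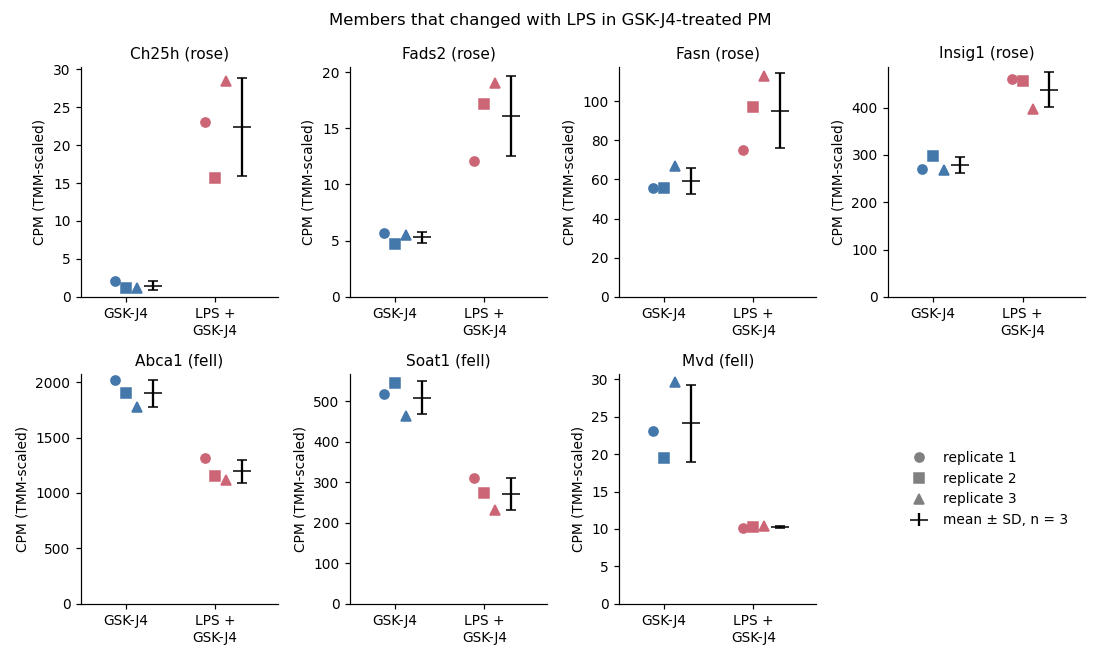
Level (CPM, linear axis from 0) of the 7 genes that changed, in each of the 3 GSK-J4 (blue) and 3 LPS + GSK-J4 (red) libraries, with the mean ± SD beside them. In all 7 genes the groups are apart, from Ch25h at 1.45 against 22.4 CPM to Abca1 at 1899.9 against 1195 CPM.

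Levels of different genes were compared per kb of annotated exon. Abca1 had the highest level in GSK-J4, at 183 CPM per kb, followed by Insig1 at 90.1 and Soat1 at 52.0 CPM per kb. In LPS + GSK-J4 the order of the leading genes changed, with Insig1 at 142 and Abca1 at 115 CPM per kb. LXRβ was the main LXR transcript, with 21.1 CPM per kb for Nr1h2 against 2.62 for Nr1h3 in GSK-J4. Ch25h moved from rank 37 to rank 8 of the 41 genes, from 1.04 to 16.1 CPM per kb, and Mvd moved from rank 10 to rank 21, from 13.0 to 5.52 CPM per kb. Elovl6 and Acaca had the lowest levels in both groups, at 0.314 and 0.651 CPM per kb in GSK-J4 and 0.493 and 0.925 in LPS + GSK-J4, where Tm7sf2 was at 0.926. From Acly downward, many neighbours in this order lay within the SD of each other.

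**Figure D5:**
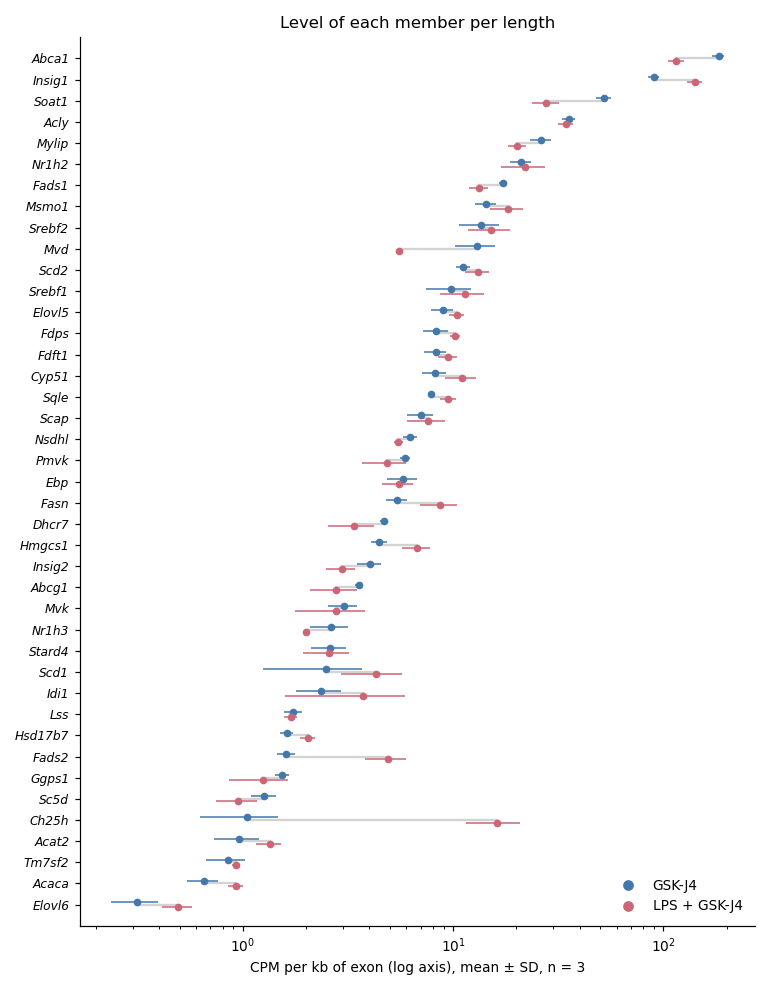
Mean level ± SD (n = 3) of each of the 41 genes per kb of exon (log axis) in GSK-J4 (blue) and LPS + GSK-J4 (red), ordered by the level in GSK-J4. Abca1 and Insig1 lead in both groups, and the widest gap between the groups is that of Ch25h.

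Summed over the 41 genes, the level was 4051, 3997 and 3884 CPM in GSK-J4 and 3445, 3257 and 3234 CPM in LPS + GSK-J4. Abca1 made up 45.6 to 49.9% of this sum in GSK-J4 and 34.6 to 38.2% in LPS + GSK-J4. Without Abca1, the sums were 2029, 2093 and 2111 CPM against 2129, 2107 and 2113 CPM, which overlap.

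A further 66 genes of sterol and lipid metabolism were examined, and 60 of them passed the filter. Of these, 1 rose and 5 fell, which is 10.0% against the 13.9% of all genes. The log2 fold change was positive for 19 and negative for 41, against 5062 and 5071 of all genes. This difference in signs was not tested. Those that changed by a log2 fold change of at least 1 were Nceh1, Rxra, Fbxw7 and Elovl7. Nceh1, which hydrolyses stored cholesterol esters and so opposes Soat1, was at 523, 575 and 495 CPM in GSK-J4 and at 244, 247 and 182 CPM in LPS + GSK-J4, a difference of -1.24 on the log2 scale (SE 0.13, adjusted p = 3.36e-06, edgeR). Rxra, the partner receptor of LXRs, fell from 246 ± 41.1 to 117 ± 6.80 CPM (SD, n = 3), which was -1.08 as a log2 fold change (adjusted p = 2.34e-05, edgeR). Fbxw7, which targets nuclear SREBPs for degradation, had a log2 fold change of -1.03 (adjusted p = 0.00209, edgeR). The elongase gene Elovl7 rose from 2.11 ± 0.417 to 5.89 ± 1.26 CPM, which was 1.47 as a log2 fold change (adjusted p = 0.00957, edgeR). With 7, 11 and 6 counts in GSK-J4, it passed the filter only through the LPS + GSK-J4 libraries. None of the further genes was called as higher with unstranded counts, DESeq2 size factors, the DESeq2 test or a filter of at least 10 counts in every library (which Elovl7 does not pass), or without replicate 1 or replicate 2 of either group. The electron donor gene Por and the LXR target Smpdl3a also fell, with log2 fold changes of -0.81 and -0.50.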

How the data were processed

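The authors trimmed reads (Trimmomatic 0.33), mapped them to mm10 (STAR 2.5.1) and deposited its raw counts of uniquely mapped fragments per gene, without normalization, per the labels and the methods. The annotation used for counting is not given in the sources used here. The reverse-strand counts of 3 GSK-J4 and 3 LPS + GSK-J4 libraries were used, since the kit is directional. Unassigned fragments, between 59.3 and 62.6% of the uniquely mapped ones without a gene, were left out.

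Counts were tested in R 4.3.3 with edgeR 4.0.16 by TMM, filterByExpr (minimum count 10, minimum total 15) and the robust quasi-likelihood test, without covariates. The p values were adjusted over all 10133 genes tested, and a change was called at 0.01. A standard error is the log2 fold change divided by the square root of F. In simulated data of 3 libraries against 3 with 9848 genes tested, edgeR called 91 of 94 genes changed by 2 on the log2 scale, 50 of 96 changed by 1 and 2 of 9658 unchanged genes. The simulation changed a smaller share of genes than was called in these data and set no replicate apart, so these rates may not carry over. Alternatives were unstranded counts, DESeq2 size factors, the DESeq2 1.42.0 Wald test, other filters, an adjusted p of 0.05, removal of ribosomal features (Rn45s, Mir6236, Lars2), a block for the replicate number, and omission of each library in turn. Leaving out replicate 3 of both groups was added after the data were seen. All 41 genes are named, and of the further 66 those called and differing by at least 1 on the log2 scale, besides Por, Smpdl3a and the 5 oxysterol genes of the closing section, all named after their values were seen. The genes and lists were chosen with earlier results of these data known. Positions and exon lengths are from GENCODE M21. STAR drops fragments that match several genes, so close paralogs may be undercounted. The interval of the count ratio and the 3-count limit cover counting error only, and those of fold changes come from the fit. Figures were made in Python 3.11.15 with matplotlib 3.10.9.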

Additional observations from a re-analysis of the deposited data

How the results depend on the processing

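Of 544 pairs of a tested gene of the set and an alternative, 531 kept the side of the threshold, 10 gained a call and 3, all of Fasn, lost it. No call changed sign. The number of genes that changed was also 7 with unstranded counts, DESeq2 size factors, the DESeq2 test, no filter and without ribosomal features. It was 6 with at least 10 counts in every library, where Ch25h was not tested, and 9 at an adjusted p of 0.05. It ran from 6 to 10 without single libraries and was 10 without replicate 3 of both groups. Past the fold threshold there were 2 genes, 1 with at least 10 counts in every library and 1 to 2 without single libraries. Over all genes there were 1406 calls, 2390 at a threshold of 0.05 and from 920 to 1604 without single libraries (920 without LPS + GSK-J4 replicate 2). Of the further genes, 6 were called, 10 without a filter, 16 at a threshold of 0.05, from 3 to 8 without single libraries (3 without GSK-J4 replicate 1 or LPS + GSK-J4 replicate 2) and 10 without replicate 3 of both groups. The causes were not tested.

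With the replicate block, 10 genes of the set were called (the 7 and Hmgcs1, Msmo1 and Fads1), 17 of the further genes and 2275 of all genes. Libraries with the same number had correlations of their deviations of -0.010, 0.117 and 0.295, and not every library correlated best with its own number, so the numbers were not taken as pairs.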

Other observations

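The further genes included 5 of oxysterol metabolism, which are described here after their values were seen. Of these, 3 were tested, and none was called at an adjusted p of 0.01 in edgeR. All 3 passed an adjusted p of 0.05 there, as did 23.6% of all genes. Gpr183, the receptor for dihydroxycholesterols that derive from 25-hydroxycholesterol, was at 15.6, 16.4 and 20.2 CPM in GSK-J4 and at 8.98, 10.3 and 9.91 CPM in LPS + GSK-J4, with a log2 fold change of -0.82 (adjusted p = 0.0140, edgeR). Hsd3b7, which inactivates those ligands, was at 43.8 ± 4.66 and 31.4 ± 2.70 CPM (SD, n = 3; log2 fold change -0.47, adjusted p = 0.0417, edgeR). Cyp27a1, the sterol 27-hydroxylase, which makes an oxysterol, was at 13.3 ± 1.84 and 7.34 ± 2.43 CPM (log2 fold change -0.86, adjusted p = 0.0301, edgeR). In these 3 genes the groups did not overlap, with LPS + GSK-J4 below, as in 18.4% of all genes. Cyp7b1 and Cyp46a1, hydroxylases of oxysterols and of cholesterol, were too low to be tested and had higher means with LPS. Cyp7b1 had 0 counts in each GSK-J4 library and 0, 2 and 3 counts in LPS + GSK-J4, and Cyp46a1 had 2, 1 and 4 against 7, 1 and 5 counts.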
